A study of Homo sapiens with 8 samples.

Results

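The subject is a set of 10 transcription factors that give T cells their identity: TCF7, LEF1, BCL11B, IKZF1, IKZF2, IKZF3, SATB1, TOX, TOX2 and ZBTB7B. They were taken by gene symbol from tables of 64252 genes, and all 10 were found there. RNA was sequenced from 2 human T-cell acute lymphoblastic leukemia (T-ALL) lines, 6T-CEM, a subline of CEM, and J.gamma1, a derivative of Jurkat that lacks the signalling enzyme phospholipase C gamma 1. Each line carried a lentiviral short hairpin RNA against LDB1 (sh-LDB1) or a control hairpin (sh-NC), with 2 libraries in each of the 4 groups and 8 in all, so every cell had been infected and selected with puromycin. Which LDB1 hairpin was sequenced is not given in the sources used here, and sh-LDB1 is compared with sh-NC within each line. No label ties the libraries of a group to separate cultures, so p-values measure the spread between libraries, which may be technical.

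LDB1 is an adaptor protein that has no DNA-binding domain of its own. It joins transcription factors through LIM-domain proteins such as LMO2 and holds enhancers and promoters together. The 10 factors are known from developing T cells, where Notch signalling starts the program: TCF7 and LEF1 carry it forward, BCL11B fixes commitment to it, the Ikaros proteins restrain Notch output and silence other fates, SATB1 organizes chromatin loops, and TOX and ZBTB7B guide the choice of the CD4 lineage. IKZF1, LEF1 and BCL11B are also known to be mutated or deleted in a share of human T-ALL.

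Libraries held 26160492 to 30604977 counts each, and mitochondrial genes took 2.98% to 4.59% of it. LDB1 itself was at 107 and 111 CPM (counts per 1e+06 counts, TMM-normalized) in 6T-CEM with sh-NC and at 37.0 and 35 CPM with sh-LDB1, a fall to 33.1% of control. In J.gamma1 it was at 60.1 and 58.8 CPM against 33.2 and 30.7 CPM, a fall to 54.0%. All 10 T-lineage markers were detected in each group, with CD2 near 0 in 6T-CEM at 0.396 CPM in sh-NC. The summed marker level was 1690 to 1750 CPM in 6T-CEM sh-NC and 2110 to 2130 in sh-LDB1, and 2090 to 2150 against 2610 to 2700 in J.gamma1. Sums were at most 3.12 CPM for 6 myeloid markers and 1.84 for 6 erythroid ones, of which HBB and ALAS2 were at 0 in all groups. The 6 B-lineage markers summed to between 34.0 and 84.6 CPM, mostly CD79A, and the 6 NK markers to 12.2 to 14.2 CPM in sh-NC and 24.2 to 35.8 in sh-LDB1, with NCR1 and KLRF1 at 0. Their part in the results below was not tested.

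After LDB1 knockdown, 2 of the 10 factors changed strongly and in the same direction in both lines: IKZF2 fell and ZBTB7B rose. BCL11B rose modestly in both and TOX fell in both, far more in J.gamma1. TCF7, IKZF1 and SATB1 moved in opposite directions in the 2 lines, by small amounts, and the change in LEF1 did not pass the test in either line. In 6T-CEM 8 factors had enough counts to be tested and 7 changed at an adjusted p under 0.05, beside 31.3% of all genes tested. Of those, 3 rose (TCF7, BCL11B, ZBTB7B) where 15.1% of all genes did, and 4 fell (IKZF1, IKZF2, SATB1, TOX) where 16.2% did. IKZF3 and TOX2 were too low there to test. In J.gamma1 all 10 were tested and 9 changed, beside 51.5% of all genes. Of these, 5 rose (BCL11B, IKZF1, IKZF3, SATB1, ZBTB7B) where 25.0% of genes did, and 4 fell (TCF7, IKZF2, TOX, TOX2) where 26.5% did. The factors were chosen with earlier results of these data known, so their counts beside these shares do not test the set.

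Most of these changes were small. A log2 fold change beyond 1 was reached by 2 factors in 6T-CEM, IKZF2 and ZBTB7B, beside 5.13% of genes, and by 4 in J.gamma1, IKZF2, TOX, TOX2 and ZBTB7B, beside 13.9%. The median absolute log2 fold change of the factors tested was 0.25 in 6T-CEM, as over all genes (0.25), and 0.66 in J.gamma1 against 0.40 over all genes. The sh-NC and sh-LDB1 libraries did not overlap for any of the 8 factors tested in 6T-CEM, as for 65.3% of genes, or for any of the 10 in J.gamma1, as for 75.9%. The 6T-CEM count fell from 7 to 4 without sh-NC library 1, and to 4 without sh-LDB1 library 2. At an adjusted p under 0.05, IKZF2, ZBTB7B and BCL11B were called in both lines with other size factors, filters, fits and DESeq2 and without each library in turn, and BCL11B did not reach a log2 fold change of 1 in either line.

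**Figure D1:**
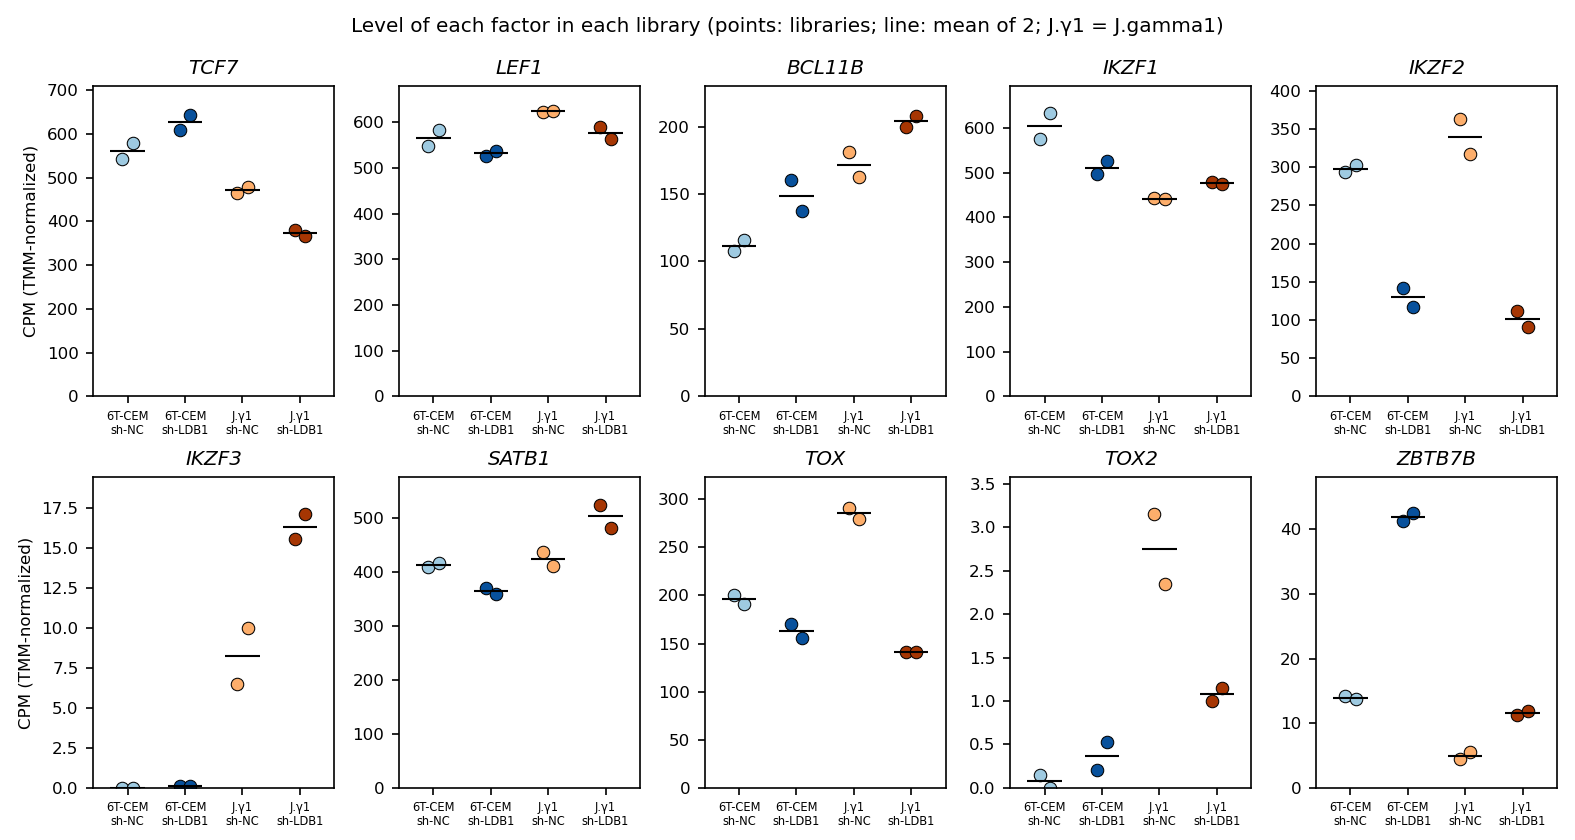
Level of the 10 factors in TMM-normalized CPM (vertical axes from 0) in the 8 libraries, 2 points per group with a line at their mean. IKZF2 drops from 294 and 303 CPM to 143 and 117 CPM in 6T-CEM and from 363 and 317 to 112 and 90.4 in J.gamma1, while ZBTB7B rises in both lines.

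**Figure D2:**
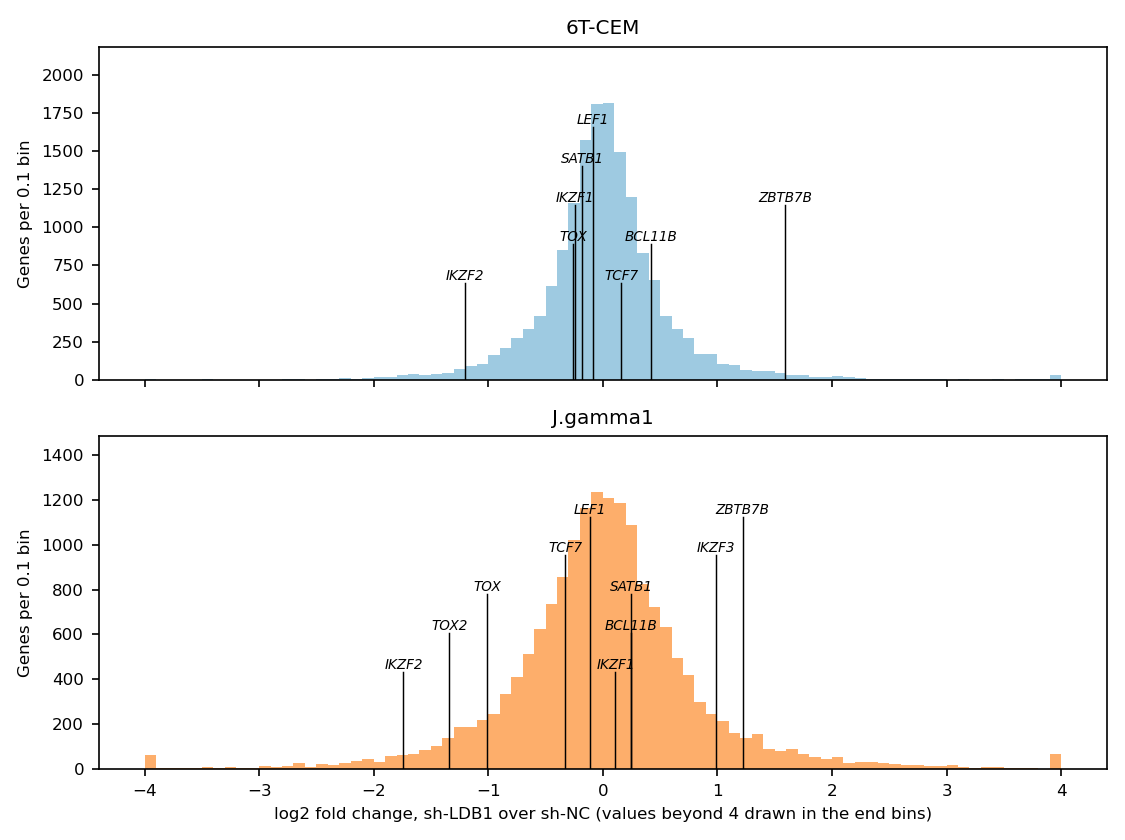
Number of genes per 0.1 bin of the log2 fold change, sh-LDB1 over sh-NC, for all genes tested in each line, with the factors tested marked by lines whose heights serve only to separate the names. IKZF2 (-1.20 and -1.74) and ZBTB7B (1.59 and 1.22) stand in the tails in both lines, and TCF7, LEF1, BCL11B, IKZF1 and SATB1 lie in the central mass in both.

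The Ikaros family gave the strongest fall. IKZF2, which encodes Helios, a zinc-finger protein known from regulatory T cells and early thymocytes, was at 294 and 303 CPM in 6T-CEM sh-NC and at 143 and 117 CPM in sh-LDB1. In J.gamma1 it was at 363 and 317 CPM against 112 and 90.4 CPM. Each knockdown library was below every control library of either line. The log2 fold change was -1.20 in 6T-CEM (SE 0.083, adjusted p = 7.78e-06), which left 43.7% of the control level, and -1.74 in J.gamma1 (SE 0.141, adjusted p = 0.00124), which left 29.9%. Changes at least as large were seen for 5.6% of the 6T-CEM genes tested and for 5.72% of those of J.gamma1. The difference between the lines, -0.55 (SE 0.187, adjusted p = 0.0836), was not called, but it passed the threshold without 6T-CEM sh-LDB1 library 2 (adjusted p = 0.038) and without J.gamma1 sh-LDB1 library 1 (adjusted p = 0.0216).

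IKZF1, which encodes Ikaros itself, changed little. In 6T-CEM its libraries were at 576 and 633 CPM in sh-NC and at 497 and 526 CPM in sh-LDB1, and in J.gamma1 at 442 and 441 CPM against 479 and 474 CPM. It thus fell slightly in the first line and was slightly higher in the second. On the log2 scale this was -0.24 in 6T-CEM (SE 0.059, adjusted p = 0.00683) and 0.11 in J.gamma1 (SE 0.041, adjusted p = 0.0399), and the difference between the lines was 0.35 (SE 0.071, adjusted p = 0.00371). The rise in J.gamma1 lost its call in 6 of 11 alternatives, among them each of the 4 that left out a library (adjusted p from 0.0812 to 0.163). The fall in 6T-CEM lost it without sh-NC library 2 (adjusted p = 0.111) and without sh-LDB1 library 1 (adjusted p = 0.0685).

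IKZF3, which encodes Aiolos, a factor of mature lymphocytes, was found almost entirely in J.gamma1. It had 0 counts in both 6T-CEM sh-NC libraries and 4 in each sh-LDB1 library, too few to test for a change. In J.gamma1 it had 207 and 315 counts in sh-NC (6.52 and 9.98 CPM) and 435 and 504 in sh-LDB1 (15.5 and 17.1 CPM). The 2 knockdown libraries of J.gamma1 were the highest of all 8. Its log2 fold change there was 0.99 (SE 0.189, adjusted p = 0.00192), and 17.4% of genes changed by at least as much. Between the sh-NC groups IKZF3 was at least 72.8-fold higher in J.gamma1 when 3 counts per library are taken as the floor in 6T-CEM.

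The make-up of the family shifted with these changes. Of the family's summed level per kilobase of exon (IKZF1 to IKZF5), IKZF2 made up 27.0% ± 0.636 (SD, n = 2) in the controls of 6T-CEM and 15.6% ± 2.05 after knockdown. In J.gamma1 its share went from 35.3% ± 2.12 to 13% ± 1.56. The share of IKZF1 was correspondingly larger, at 61.4% against 68.6% in 6T-CEM and 51.5% against 68.8% in J.gamma1, although its own level moved little. IKZF5, a widely expressed relative, was between 9.76% and 15.6%, and IKZF3 was at 1.04% and 2.54% in J.gamma1. Shares of a sum are tied to one another, so they describe the mixture and are not tested separately.

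**Figure D3:**
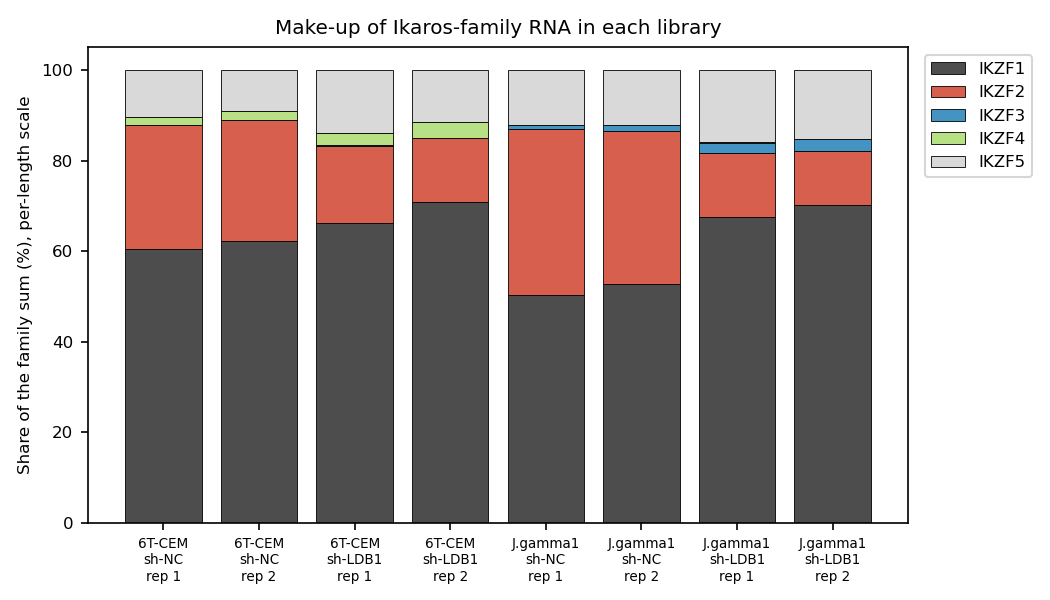
Share (%) of each Ikaros-family gene in the family's summed level per kilobase of exon, 1 stacked bar for each of the 8 libraries. The IKZF2 part shrinks in 6T-CEM from a mean of 27.0% to 15.6% and in J.gamma1 from 35.3% to 13%, and IKZF1 is the largest part in every bar.

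ZBTB7B, which encodes ThPOK, the factor that directs thymocytes to the CD4 helper lineage and holds down CD8-lineage genes, gave the strongest rise among the factors tested. It was at 14.2 and 13.7 CPM in 6T-CEM sh-NC and at 41.3 and 42.5 CPM in sh-LDB1. In J.gamma1 it was at 4.41 and 5.58 CPM against 11.3 and 11.8 CPM. The knockdown libraries of J.gamma1 remained below the control libraries of 6T-CEM. On the log2 scale ZBTB7B rose by 1.59 in 6T-CEM (SE 0.096, adjusted p = 2.23e-08), a 3.01-fold rise, and 1.22 in J.gamma1 (SE 0.167, adjusted p = 0.000124), a 2.33-fold rise. Only 2.98% of the genes tested in 6T-CEM changed by as much or more, and 12.3% of those in J.gamma1. The difference between the lines was -0.37 (SE 0.175, adjusted p = 0.151) and was not called. Of the summed level of ZBTB7A, ZBTB7B and ZBTB7C per kilobase, ZBTB7B made up 33.8% before and 53.2% after knockdown of LDB1 in 6T-CEM, and 15.5% and 22.2% in J.gamma1.

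BCL11B, the zinc-finger factor that closes off other fates at T-lineage commitment, was at 108 and 116 CPM in 6T-CEM sh-NC and at 160 and 138 CPM in sh-LDB1. In J.gamma1 it was at 181 and 162 CPM against 200 and 208 CPM. Every knockdown library was above the controls of its own line. The rise was 0.42 on the log2 scale in 6T-CEM (SE 0.074, adjusted p = 0.000906) and 0.25 in J.gamma1 (SE 0.059, adjusted p = 0.00443), that is, 1.34-fold and 1.19-fold. The lines differed by -0.17 (SE 0.109, adjusted p = 0.319), which was not called. Changes of this size were common, since 31.6% of the 6T-CEM genes and 65.4% of the J.gamma1 genes changed by as much or more.

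The sequences upstream of IKZF2, ZBTB7B and BCL11B are shown because these genes changed in the same direction in both lines. IKZF2 and ZBTB7B have 2 starts each in the table, of which the outermost is shown, and the window of the other start held none of the motifs searched. Those printed are RefSeq sequences of GRCh38.p14 on the strand of the gene, 5′ to 3′, up to 250 bases before the start, with bases inside exons of the gene left out, which shortens the ZBTB7B sequence to 231 bases. Capitals mark the motifs found in a search of both strands. TOX, the other gene that fell in both lines, and IKZF3 are not shown.
IKZF2, chr2:213152457-213152706, minus strand: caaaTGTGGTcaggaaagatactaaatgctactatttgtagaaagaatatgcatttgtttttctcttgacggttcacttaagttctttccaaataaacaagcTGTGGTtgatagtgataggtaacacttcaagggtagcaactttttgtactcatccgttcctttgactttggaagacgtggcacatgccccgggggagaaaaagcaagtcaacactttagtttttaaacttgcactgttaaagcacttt
ZBTB7B, chr1:155002399-155002629, plus strand: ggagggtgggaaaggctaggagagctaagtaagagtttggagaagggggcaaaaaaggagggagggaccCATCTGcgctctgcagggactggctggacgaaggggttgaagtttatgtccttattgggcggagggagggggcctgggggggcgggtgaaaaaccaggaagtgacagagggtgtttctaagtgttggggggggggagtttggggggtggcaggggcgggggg
BCL11B, chr14:99272198-99272447, minus strand: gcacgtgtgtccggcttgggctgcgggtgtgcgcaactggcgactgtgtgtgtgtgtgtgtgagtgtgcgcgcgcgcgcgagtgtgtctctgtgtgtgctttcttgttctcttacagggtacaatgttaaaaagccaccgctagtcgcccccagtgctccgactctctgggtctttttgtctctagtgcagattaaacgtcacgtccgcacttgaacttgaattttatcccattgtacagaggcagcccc

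A search was made for AGATAA, bound by zinc-finger factors of the GATA type, for the E-boxes CAGCTG as well as CAGATG, bound by basic helix-loop-helix factors, for the RUNX motif TGTGGT, for the ETS motif CCGGAAG and for the motif of TCF7 and LEF1, CTTTGAT. No match shown overlapped another. The IKZF2 window held TGTGGT at 2 places on the printed strand, and 0.971% of the 35116 promoter windows of 250 bases in the table held it at least 2 times, against 11.0% at least once. The ZBTB7B window held CAGATG once, on the strand not printed, as did 12.2% of windows on either strand. The BCL11B window held none of the 6 motifs. Among windows of the other factors, not printed, TGTGGT lay in 1 window each of LEF1, called in neither line, IKZF1 and SATB1. Another SATB1 window held CAGATG at 2 places, and another IKZF1 window held AGATAA at 2 places. AGATAA was present in 9.17% of windows, CAGCTG in 14%, CCGGAAG in 8.52% and CTTTGAT in 2.26%. G and C made up 38.0% of the IKZF2 sequence, 61.0% of the ZBTB7B sequence and 54.8% of the BCL11B sequence. These are matches of letters in a short window, and binding was not measured here.

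TOX, a high-mobility-group factor needed for CD4-lineage development and known from exhausted T cells, fell in both lines but to different degrees. It was at 201 and 192 CPM in 6T-CEM sh-NC and at 171 and 156 CPM in sh-LDB1. In J.gamma1 it was at 291 and 279 CPM against 141 and 141 CPM. J.gamma1 controls were the highest libraries and J.gamma1 knockdowns the lowest, so the order of the lines in sh-LDB1 was the reverse of that in sh-NC. The sh-LDB1 groups of the 2 lines were not tested against each other. The log2 fold change was -0.26 in 6T-CEM (SE 0.060, adjusted p = 0.00385) and -1.01 in J.gamma1 (SE 0.048, adjusted p = 5.04e-08), which left 83.3% and 49.6% of control. The difference of -0.75 between the lines was called (SE 0.076, adjusted p = 3.47e-05). The fall in 6T-CEM lost its call without sh-NC library 1 (adjusted p = 0.0668) and without sh-LDB1 library 2 (adjusted p = 0.0509).

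TOX shares 108 exonic bases with TOX-DT, a long noncoding RNA on the opposite strand. TOX-DT had 775 and 779 counts in J.gamma1 sh-NC and 332 and 393 in sh-LDB1, which is -0.96 on the log2 scale (SE 0.105, adjusted p = 2.51e-05), against -0.01 (adjusted p = 0.959) in 6T-CEM. With 8817 and 9248 counts in the J.gamma1 controls, TOX was far more abundant, and reads in the shared bases cannot be told apart since strand use is not given in the sources used here.

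TOX2, a relative of TOX, was found at low levels and almost entirely in J.gamma1. It had 100 and 74 counts in J.gamma1 sh-NC and 28 and 34 in sh-LDB1, that is, 3.15 and 2.35 CPM against 1.00 and 1.15 CPM. In 6T-CEM it had 4 and 0 counts in sh-NC and 6 and 15 in sh-LDB1. It therefore went down in J.gamma1 while the few counts in 6T-CEM went up. Its fitted log2 fold change in J.gamma1 was -1.34 (SE 0.309, adjusted p = 0.00392). In 6T-CEM the ratio of sh-LDB1 to sh-NC was 4.81, with a 95% interval of 1.62 to 19.3. That interval covers counting error only and assumes that each count is an independent read, which was not tested. The fitted difference between the lines, -3.55 (SE 0.998, adjusted p = 0.0219), rests on these few counts, ranged from -7.78 without 6T-CEM sh-NC library 1 to -2.56 without 6T-CEM sh-NC library 2, and lost its call in 6 of 14 alternatives, 5 of which left out a library (adjusted p from 0.0537 to 0.13).

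**Figure D4:**
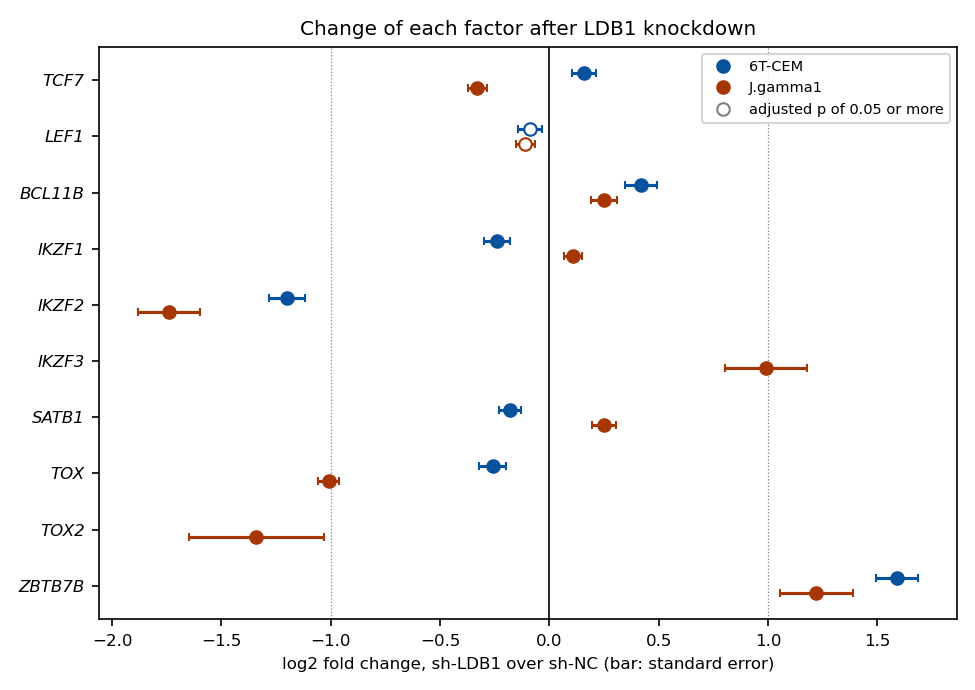
Log2 fold change, sh-LDB1 over sh-NC, of the factors tested in each line (points, with standard error bars; open points have an adjusted p of 0.05 or more; dotted lines at -1 and 1). IKZF2 and ZBTB7B lie beyond the dotted lines in both lines, and TCF7, IKZF1 and SATB1 fall on opposite sides of 0 in the 2 lines.

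TCF7 and LEF1 are the high-mobility-group factors that bring beta-catenin to WNT target genes and act with Groucho-type corepressors when it is absent. TCF7 was at 543 and 579 CPM in 6T-CEM sh-NC and at 610 and 643 CPM in sh-LDB1, and in J.gamma1 at 465 and 478 CPM against 381 and 367 CPM. It was thus higher after knockdown in the first line and lower in the second. Its log2 fold change was 0.16 in 6T-CEM (SE 0.055, adjusted p = 0.036) and -0.33 in J.gamma1 (SE 0.044, adjusted p = 0.000105), with a difference between the lines of -0.49 (SE 0.067, adjusted p = 0.000262). The rise in 6T-CEM lost its call without sh-NC library 1 (adjusted p = 0.24), without sh-LDB1 library 2 (adjusted p = 0.207) and without a filter on low counts (adjusted p = 0.129). TCF7 shares 210 exonic bases with SKP1 on the opposite strand, whose log2 fold changes of 0.11 and 0.09 did not pass the test.

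LEF1 was the factor called in neither line. Its libraries were at 548 and 584 CPM in 6T-CEM sh-NC and at 525 and 538 CPM in sh-LDB1, and in J.gamma1 at 623 and 624 CPM against 590 and 564 CPM. The knockdown libraries were below the controls of their line by a small margin. The log2 fold change was -0.09 in 6T-CEM (SE 0.054, adjusted p = 0.253) and -0.11 in J.gamma1 (SE 0.043, adjusted p = 0.0629), neither of which passed, and the lines differed by -0.02 (SE 0.063, adjusted p = 0.886). LEF1-AS1, the antisense RNA that shares 279 exonic bases with LEF1, had log2 fold changes of -0.44 (adjusted p = 0.0874) and -0.43 (adjusted p = 0.043) at no more than 269 counts in any library.

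SATB1, a chromatin organizer that T cells need to open and silence lineage genes, was at 408 and 416 CPM in 6T-CEM sh-NC and at 369 and 359 CPM in sh-LDB1. In J.gamma1 it was at 437 and 412 CPM against 524 and 482 CPM. Like IKZF1, it was lower after knockdown in 6T-CEM and higher in J.gamma1. The log2 fold change was -0.18 in 6T-CEM (SE 0.051, adjusted p = 0.0162) and 0.25 in J.gamma1 (SE 0.054, adjusted p = 0.00274), and the difference of 0.42 between the lines was called (SE 0.072, adjusted p = 0.00114). In 6T-CEM the call was lost without sh-NC library 1 (adjusted p = 0.0621), without sh-NC library 2 (adjusted p = 0.107) and without sh-LDB1 library 2 (adjusted p = 0.0809). SATB1 shares 211 exonic bases with TBC1D5 on the same strand, whose log2 fold changes were 0.17 (adjusted p = 0.0702) and 0.25 (adjusted p = 0.00941).

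Of the 10 factors, 5 thus had a response that differed between the lines (TCF7, IKZF1, SATB1, TOX and TOX2), beside 24.4% of all genes. Of these, TOX2 alone differed by more than 1 on the log2 scale, beside 5.86% of genes. TOX2 passed the filter of the fit to all 8 libraries only through its J.gamma1 counts, as did IKZF3. IKZF3 had a fitted difference of -4.06 (SE 1.433, adjusted p = 0.0625), which was not called. That value rests on 0, 0, 4 and 4 counts in the 6T-CEM libraries. The knockdown itself was deeper in 6T-CEM, with a difference of 0.70 for LDB1 (SE 0.095, adjusted p = 0.000237). Line and depth of knockdown cannot be told apart in this design. Because each line is also a table of its own and shares its sh-NC libraries among all comparisons, these values are not independent of those within each line.

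The control levels of the factors already differed between the lines. Between the sh-NC groups 8 of the 10 differed, beside 65.7% of genes, and 3 of them (IKZF3, TOX2 and ZBTB7B) by more than 1 on the log2 scale, beside 32.4%. IKZF3 and TOX2, too low to test in 6T-CEM by itself, passed the filter of the fit to all 8 libraries only through their J.gamma1 counts. A higher level in J.gamma1 was thus favoured in advance for both. J.gamma1 was higher than 6T-CEM by 0.62 for BCL11B (adjusted p = 2.97e-05), by 0.54 for TOX (adjusted p = 2.29e-06) and by 0.14 for LEF1 (adjusted p = 0.0155). It was lower for TCF7 (log2 difference -0.25, adjusted p = 0.000553), IKZF1 (-0.45, adjusted p = 6.48e-06) and ZBTB7B (-1.48, adjusted p = 6.68e-07). TOX2 had 174 counts in the J.gamma1 controls and 4 in those of 6T-CEM, a ratio of 36.4. Its 95% interval for counting error, 14 to 135, makes the same assumption of independent reads. The differences of 0.19 for IKZF2 (SE 0.130, adjusted p = 0.247) and 0.04 for SATB1 (SE 0.051, adjusted p = 0.49) were not called. The call for LEF1 was lost without 6T-CEM sh-NC library 1 (adjusted p = 0.199), J.gamma1 sh-NC library 1 (adjusted p = 0.0535) or J.gamma1 sh-NC library 2 (adjusted p = 0.0533).

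To compare the genes with one another, CPM was divided by the length of the gene's exons in kilobases. On that scale LEF1 had the highest level in all 4 groups, from 99.2 to 116 CPM per kilobase. In 6T-CEM sh-NC it was followed by TCF7 (55.6) and IKZF1 (55.3), whose libraries overlapped, and then by TOX (48.1), SATB1 (27.9), IKZF2 (24.4), BCL11B (13.1) and ZBTB7B (3.24). In J.gamma1 sh-NC the order was TOX (70.0), TCF7 (46.7), IKZF1 (40.4), SATB1 (28.7), IKZF2 (27.8) and BCL11B (20.1), with SATB1 and IKZF2 overlapping. ZBTB7B (1.16), TOX2 (0.849) and IKZF3 (0.815) came last, the latter 2 overlapping.

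After knockdown, the order by exon length changed at a few places. IKZF2 was below BCL11B in both lines, at 10.6 against 17.5 CPM per kilobase in 6T-CEM and at 8.26 against 23.9 in J.gamma1, and the libraries of the 2 genes did not overlap. In 6T-CEM IKZF2 overlapped ZBTB7B (9.74). In J.gamma1 TOX (34.6) was below IKZF1 (43.6) and TCF7 (37.0) and overlapped SATB1 (34.0). IKZF3 (1.61) was above TOX2 (0.333) there, where the controls had overlapped.

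The genes lie on 10 chromosomes (GRCh38). IKZF2 spans chr2:212999691-213152427, ZBTB7B chr1:155002630-155018523 and BCL11B chr14:99169287-99272197. TCF7 spans chr5:134114681-134151865, LEF1 chr4:108047545-108168956, SATB1 chr3:18345377-18445621, IKZF1 chr7:50304068-50405101, IKZF3 chr17:39757718-39864312 and TOX2 chr20:43914852-44069616, and TOX is on chromosome 8. No exon of another gene overlapped BCL11B, IKZF3 or TOX2. An antisense RNA with at most 64 counts shared 302 exonic bases with IKZF2, which had at least 2663 counts, and DCST2, with at most 4 counts, shared 4 bases with ZBTB7B. An antisense RNA over 110 bases of IKZF1 exons is not among the genes of the tables.

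The genes whose levels ran most closely with each factor over the 8 libraries were found among 12675 other genes by Pearson's r of log2 normalized counts. Among those reported, the closest was MTMR4 for IKZF2 (r = 0.9996), DNAJC25-GNG10 for BCL11B (0.990), GYPC for TOX (0.9961), BAZ2A for TCF7 (0.9957), VWA8 for IKZF1 (0.9891), USP7 for LEF1 (0.9786) and CPSF7 for SATB1 (0.9728). An r above 0.95 was shared with between 11 genes, for SATB1, and 185 genes, for ZBTB7B. Among the factors themselves IKZF2 ran with TOX (r = 0.90) and BCL11B with IKZF3 (0.92), while IKZF1 ran against TOX2 (-0.95), TCF7 against SATB1 (-0.93) and LEF1 against ZBTB7B (-0.93). These values describe 8 libraries in 4 groups, which all genes share, and do not separate line from knockdown. IKZF3 and TOX2 had no more than 15 counts in any 6T-CEM library.

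Genes of CD4 and CD8 lineage choice, in which ZBTB7B and TOX act, moved in both lines. Of 9 genes on this list, 3 rose and 3 fell in 6T-CEM (median log2 fold change -0.05, against 0.003 over all genes), and 6 rose and 3 fell in J.gamma1 (median 0.25, against 0 over all genes). Of all genes tested, 15.1% rose and 16.2% fell in 6T-CEM, and 25.0% rose and 26.5% fell in J.gamma1. CD4, the coreceptor of helper T cells, was at 36.2 and 35.1 CPM in 6T-CEM sh-NC against 84.0 and 93.3 in sh-LDB1, and at 5.48 and 4.79 against 23.3 and 23.3 in J.gamma1. CD8A, a chain of the coreceptor of cytotoxic T cells, also rose, by 0.44 on the log2 scale in 6T-CEM (SE 0.090, adjusted p = 0.00167) and by 2.25 in J.gamma1 (SE 0.230, adjusted p = 1.49e-05). CD4 rose by 1.32 (SE 0.078, adjusted p = 1.84e-08) and by 2.19 (SE 0.128, adjusted p = 2.48e-07).

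RUNX3, which directs the CD8 fate, fell by 1.04 on the log2 scale in 6T-CEM (SE 0.075, adjusted p = 1.26e-07) and by 0.40 in J.gamma1 (SE 0.126, adjusted p = 0.0202). CD8B was called in J.gamma1 alone (1.19, adjusted p = 0.00853, against -0.11 with adjusted p = 0.76 in 6T-CEM). The difference between the lines was called for CD4 (0.87, adjusted p = 0.000425), CD8A (1.80, adjusted p = 2.89e-05), CD8B (1.29, adjusted p = 0.0277) and RUNX3 (0.63, adjusted p = 0.00276).

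**Figure D5:**
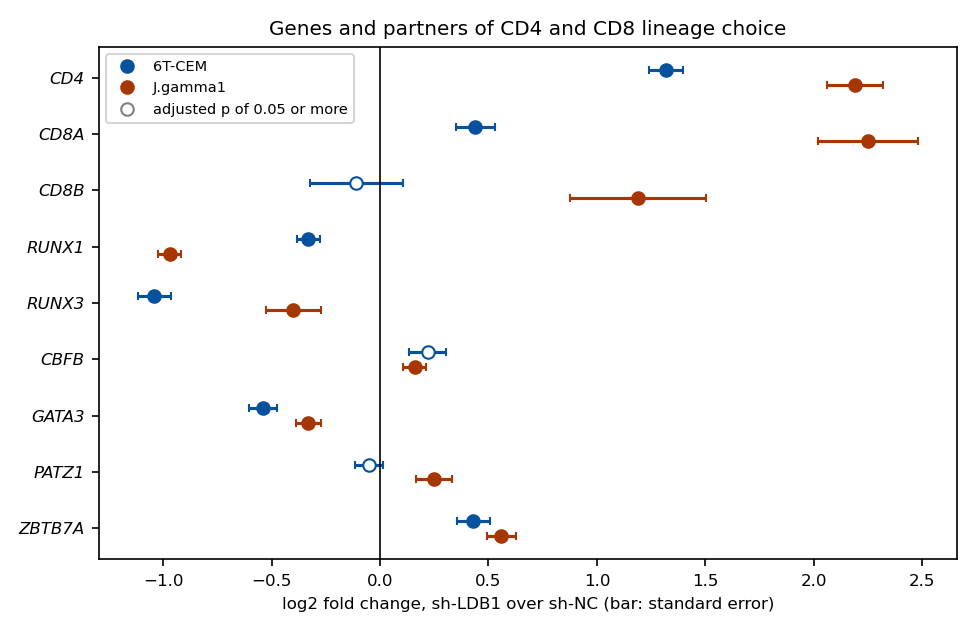
Log2 fold change, sh-LDB1 over sh-NC, of the 9 genes of CD4 and CD8 lineage choice in each line (points, with standard error bars; open points have an adjusted p of 0.05 or more). CD4 (1.32 and 2.19) and CD8A (0.44 and 2.25) lie above 0 in both lines, and RUNX1, RUNX3 and GATA3 lie below 0 in both.

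The partners of TCF7 and LEF1 gave a mixed picture. Of 12 relatives and partners 11 were tested in 6T-CEM, of which 3 rose and 2 fell (median 0.04), and in J.gamma1 4 of 12 rose and 6 fell (median -0.13). Over all genes 15.1% rose and 16.2% fell in 6T-CEM, and 25.0% and 26.5% in J.gamma1. TLE4, a Groucho-type corepressor, fell by 0.68 in 6T-CEM (SE 0.064, adjusted p = 1.78e-06) and by 1.5 in J.gamma1 (SE 0.071, adjusted p = 5.22e-08). BCL9L, a coactivator that links beta-catenin to transcription, rose by 1.31 (SE 0.116, adjusted p = 9.38e-07) and by 1.34 (SE 0.077, adjusted p = 2.23e-07). TCF7L1, at no more than 59 counts, and TLE2 fell in J.gamma1 by 2.1 and 0.89 (adjusted p = 0.00118 and 5.43e-06). Of 10 WNT target genes only 3 had enough counts in 6T-CEM, where 1 rose and 1 fell, and 6 in J.gamma1, where again 1 rose and 1 fell. AXIN2, which feeds back on the pathway, rose in both lines (0.93, adjusted p = 0.00854, and 0.49, adjusted p = 0.00298), and ZNRF3 fell in 6T-CEM (-1.93, adjusted p = 0.00998), with 1.45 in J.gamma1 at an adjusted p of 0.311. ZNRF3 was low, at 34 and 44 counts in 6T-CEM sh-NC and 6 and 16 in sh-LDB1. Its J.gamma1 sh-NC libraries lay far apart, at 18 and 107 counts. The other WNT target called was NOTUM, which fell in J.gamma1 at a mean of at most 22.4 normalized counts (adjusted p = 0.0048).

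Subunits of NuRD, the remodelling and deacetylase complex that Ikaros and BCL11B proteins recruit, changed by little. Of 13 subunits 5 rose and 2 fell in 6T-CEM (median -0.01), and 5 rose and 4 fell in J.gamma1 (median 0.03). Beside this, 15.1% of all genes rose and 16.2% fell in 6T-CEM, and 25.0% and 26.5% in J.gamma1. CHD3 rose by 0.21 and 0.56 (adjusted p = 0.0122 and 1.82e-06), HDAC1 rose by 0.25 and 0.46 (adjusted p = 0.003 and 1.25e-05) and RBBP4 fell by 0.19 and 0.56 (adjusted p = 0.0113 and 1.51e-06). RBBP7 fell in J.gamma1 (-0.50, adjusted p = 1.22e-05), with -0.01 in 6T-CEM (adjusted p = 0.886).

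Among 10 family relatives of the factors, 2 of the 7 tested rose and none fell in 6T-CEM (median 0.26), and 4 of 8 rose and 3 fell in J.gamma1 (median 0.14). Shares over all genes were 15.1% up and 16.2% down in 6T-CEM, and 25.0% up and 26.5% down in J.gamma1. ZBTB7C, at 16 and 26 counts in J.gamma1 sh-NC, rose there by 1.94 (adjusted p = 0.00129), and TCF7L2, the relative of TCF7, by 0.60 (adjusted p = 0.000393). The 2 that rose in both lines were TOX4 (0.26 and 0.23) and ZBTB7A (0.43 and 0.56).

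Genes that BCL11B is known to hold down in T-cell precursors moved both ways. Of 14 such genes of natural killer, innate and progenitor cells 9 were tested in 6T-CEM, of which 2 rose and 4 fell (median -0.20), and 6 in J.gamma1, of which 3 rose and 3 fell (median 0.83). Among all genes 15.1% rose and 16.2% fell in 6T-CEM, and 25.0% and 26.5% in J.gamma1. ID2, an inhibitor of E proteins, rose by 1.85 in 6T-CEM (SE 0.268, adjusted p = 0.000108) and by 2.59 in J.gamma1 (SE 0.127, adjusted p = 6.53e-08), and IL2RB, a chain of the interleukin receptor used by natural killer cells, rose by 0.95 and 2.35 (adjusted p = 0.0255 and 2.55e-05). ZBTB16, which encodes the innate-lymphocyte factor PLZF, fell by 0.93 and 2.61 (adjusted p = 0.0154 and 9.83e-07), and KIT, a progenitor receptor, fell in J.gamma1 by 1.21 (adjusted p = 0.000583). Over the 6 lists together, which share some genes, 27 of the 50 genes tested were called in 6T-CEM, where 31.3% of all genes were, and 40 of the 51 in J.gamma1, where 51.5% were, and the 6T-CEM count was 17 without sh-NC library 2. The lists were chosen with earlier results of these data known, so these tallies do not test them. As RNA was taken from bulk cells, a change in the RNA of each cell and a change in the share of cells that express a gene cannot be told apart for any gene above.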

How the data were processed

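Per the labels and the study's methods, the authors used HISAT2 2.2.0 for alignment of the read pairs (genome build hg38) and StringTie for gene quantification. They deposited raw counts per gene, 1 table per line, with no normalization and no pooling. The annotation release, strand use and treatment of reads that match several genes are not given in the sources used here. Symbols, exon lengths and overlaps come from GENCODE on GRCh38, and promoters from RefSeq (8 of the 10 factors matched).

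Robust quasi-likelihood F tests of edgeR 4.0.16 (R 4.3.3) were run after TMM normalization and filterByExpr, and p-values were adjusted by Benjamini-Hochberg across every gene tested. Each line was fitted by itself, and differences between lines came from a fit to all 8 libraries. Called means an adjusted p under 0.05. CPM uses TMM factors of the 8 libraries, and standard errors are the log2 fold change over the root of F. Tests were checked on simulated counts. Alternatives were other size factors and filters, DESeq2 1.42.0, a replicate block, the 8-library fit, a fold threshold and leaving out each library.

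The factors and gene lists were chosen with earlier results of these data known. All factors are named, as are up to 4 genes per list with the largest change among those called in either line at a mean of at least 50 normalized counts. The NOTUM, TOX4 and ZBTB7A values were added after their values were seen, as the remaining genes in small tallies of called genes. Some list and marker genes are not reported here.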

Additional observations from a re-analysis of the deposited data

Results flagged for a closer look

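For 5 of the 10 factors the response to LDB1 knockdown differed between the lines in edgeR's test of the difference itself (J.gamma1 minus 6T-CEM, log2 scale). The difference was -0.75 for TOX, which fell in both lines. It was -0.49 for TCF7, 0.42 for SATB1 and 0.35 for IKZF1, which each moved in opposite directions in the 2 lines. These 4 differences were called under each of the 14 alternatives. The changes within a line were less stable. In J.gamma1 IKZF1 lost its call in 6 of 11 alternatives, and in 6T-CEM TCF7 and SATB1 each lost it in 3 and IKZF1 in 2. For TOX2 the difference was -3.55, on 4, 0, 6 and 15 counts in the 6T-CEM libraries, and its call was lost in 6 of 14 alternatives. LDB1 was at 33.1% of control in 6T-CEM and at 54.0% in J.gamma1, and the part of that in the differences was not tested.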

How the results depend on the processing

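With a log2 fold change beyond 1 required, 2 factors were called in 6T-CEM, 4 in J.gamma1, 1 for the difference between lines and 3 for the control level. Leaving out 1 library at a time gave 4 to 6 factors in 6T-CEM, 8 in each case in J.gamma1, 4 to 5 for the difference and 7 to 8 for the control level, and 17 to 22 genes of the related lists in 6T-CEM against 36 to 39 in J.gamma1. A group left with 1 library was assumed to vary like the others. The difference for LEF1, -0.02 and not called, turned to 0.01 with upper-quartile factors and lay between -0.06 and 0.03 when 1 library was left out, above 0 without 6T-CEM sh-NC replicate 1, 6T-CEM sh-LDB1 replicate 2 or J.gamma1 sh-LDB1 replicate 2. Of 450 values for single factors under the alternatives, 417 kept direction and side of the threshold, 25 lost the call, 4 gained it and 4 changed sign. The cause was not tested. The 450 values leave out IKZF3 and TOX2 within 6T-CEM, and IKZF3 for the difference and the control level, where counts were near 0.

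Same-numbered libraries of a line did not deviate together (r = -0.014 in 6T-CEM and -0.038 in J.gamma1), so the numbers were not taken as pairs. With the replicate number as a block, 7 factors were called in 6T-CEM, 10 in J.gamma1 (LEF1 added, adjusted p = 0.0329), 5 for the difference (IKZF2 gained, adjusted p = 0.00738, and TOX2 lost, adjusted p = 0.054), 8 for the control level, and 28 and 40 genes of the lists. In the filtered fit of 6T-CEM by itself IKZF3 and TOX2 were too low to be tested. The 8-library fit, whose filter also saw the J.gamma1 counts, tested all 10 factors in 6T-CEM. It called 8 of them, 4 higher and 4 lower. Without a filter on low counts all 10 were tested and 6 were called, 2 higher and 4 lower.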

Other observations

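The T-lineage markers that served to check the lines also moved. Of 10, 4 rose and 1 fell in 6T-CEM, where 15.1% of all genes rose and 16.2% fell, and 6 rose and 2 fell in J.gamma1, where 25.0% rose and 26.5% fell (edgeR, adjusted over all genes). CD28, a costimulatory receptor, rose by 1.47 on the log2 scale in J.gamma1 (adjusted p = 2.51e-08), with -0.17 in 6T-CEM (adjusted p = 0.0642), and the difference was called (1.64, adjusted p = 2.55e-07). CD3E and CD3G, chains of the T-cell receptor complex, rose in both lines, by 0.63 and 0.94 for CD3E (adjusted p = 3.01e-07 and 2.75e-08) and by 0.49 and 1.15 for CD3G (adjusted p = 7.66e-05 and 1.02e-07). CD3D, another chain, rose by 0.35 in 6T-CEM (adjusted p = 0.000171) and fell by 0.21 in J.gamma1 (adjusted p = 0.00279). The other falls were CD5 in 6T-CEM (-0.54, adjusted p = 7.96e-05) and LCK in J.gamma1 (-0.38, adjusted p = 2.85e-05).

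NKG7, a cytotoxic-granule gene on the NK list, rose by 1.52 in 6T-CEM (adjusted p = 1.17e-07) and by 1.72 in J.gamma1 (adjusted p = 0.000538), while NCR1 and KLRF1 on the same list had 0 counts. RNA of PLCG1, the gene whose protein J.gamma1 is known to lack, was at 274 CPM in J.gamma1 sh-NC against 218 in 6T-CEM sh-NC, so its RNA level does not check the line label.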
